A study of Homo sapiens with 16 samples.

Results

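Chromatin binding of YAP, read through its eGFP tag, was compared with acetylation of histone H3 at lysine 27 (H3K27ac) in HEK293 cells given vehicle, that is before any hyperosmotic stress. HEK293 is a human embryonic kidney cell line, here with the genotype eGFP-YAP. Both YAP1 vehicle libraries, made with an antibody against GFP, were set against both H3K27ac vehicle libraries at every interval on chromosomes 1 to 22 and X outside the YAP1 gene. That rule kept 73975 of the 74404 intervals in the shared set: 417 lay on other sequences and 12 inside YAP1. Of these, 46771 held enough counts to be tested. The 27204 that did not were narrow (median 274 bp against 551 bp) and 12.0% lay at promoters, against 46.8% of the tested ones.

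The assay was CUT&Tag, in which an antibody guides a transposase that cuts and tags nearby DNA in nuclei. The series holds 2 vehicle and 2 sorbitol libraries (200 mM for 1 h) for each of YAP1, H3K27ac and the loop-forming proteins CTCF and RAD21. All carry the eGFP-YAP genotype, and the sources used here do not state the promoter that drives the tagged protein, how many clones there were, or whether replicates came from separate cultures. The p-values therefore measure the spread between these libraries, which may be technical. The design text gives 1 h without serum before sorbitol for eGFP-YAP cells and does not say whether vehicle cells had it. The comparison has no control library for unspecific cutting, so the H3K27ac, CTCF and RAD21 libraries are the reference.

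YAP is the co-activator at the end of the Hippo pathway. The kinases LATS1 and LATS2 keep it in the cytoplasm, and when they are inactive it enters the nucleus. It does not bind DNA itself but is carried by the TEAD factors, TEAD1 to TEAD4, whose core site reads GGAATG. Its known target genes include CCN1, CCN2, ANKRD1 and AMOTL2. H3K27ac marks active promoters and enhancers, so most intervals where a co-activator is found are also acetylated.

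The kept intervals held 51.3% and 49.5% of the 3820932 and 3339202 counts of the YAP1 libraries, and 97.1% of the 6561226 and 6541568 counts of the H3K27ac libraries. The remaining counts lay in the YAP1 gene or on other sequences, such as the mitochondrial genome. Values are given as CPM, counts scaled to a common depth with TMM library sizes, and ratios as the log2 of YAP1 over H3K27ac. All 11 HEK293 marker genes on the list used had acetylated intervals at their start sites, with a summed H3K27ac level of 824 and 849 CPM in the 2 libraries. The endothelial markers PECAM1, CDH5 and TEK had none, the liver markers summed to 0.479 and 2.43 CPM with ALB and APOA1 at 0, the blood markers to 15.5 and 13.4 CPM with PTPRC and CD3E at 0, and the fibroblast markers to 13.7 and 16.2 CPM with none at 0.

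The sequences on which the results turn are stretches of intervals with more YAP1 than H3K27ac, printed 5′ to 3′ on the plus strand of hg38 with GGAATG, or its reverse complement, in capitals. The first pair are arrays with many copies of the site, the satellite is a tandem GGAAT repeat, and the others lie beside known YAP target genes.
CLPTM1L intron, chr5:1327892-1328131: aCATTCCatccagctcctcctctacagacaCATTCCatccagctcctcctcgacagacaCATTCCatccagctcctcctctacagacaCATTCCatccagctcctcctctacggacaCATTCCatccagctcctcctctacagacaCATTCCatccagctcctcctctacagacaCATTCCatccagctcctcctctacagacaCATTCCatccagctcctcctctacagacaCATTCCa
LINC00632 intron, chrX:140723348-140723527: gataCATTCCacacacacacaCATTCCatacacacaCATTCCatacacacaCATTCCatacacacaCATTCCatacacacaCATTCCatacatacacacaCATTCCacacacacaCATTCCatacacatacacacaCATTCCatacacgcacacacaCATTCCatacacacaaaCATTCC
satellite on chromosome 4, chr4:49637713-49637802: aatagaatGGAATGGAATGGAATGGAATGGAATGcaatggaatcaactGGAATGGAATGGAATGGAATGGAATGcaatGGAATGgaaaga
ANKRD1 start, chr10:90921183-90921242: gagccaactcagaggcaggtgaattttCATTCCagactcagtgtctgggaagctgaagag
CCN1 downstream exon of a noncoding transcript, chr1:85584348-85584407: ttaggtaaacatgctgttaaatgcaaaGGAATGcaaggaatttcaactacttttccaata
AMOTL2 intron, chr3:134364220-134364279: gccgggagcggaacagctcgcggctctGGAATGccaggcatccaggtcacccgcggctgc
RBMS3 intron, chr3:29694069-29694128: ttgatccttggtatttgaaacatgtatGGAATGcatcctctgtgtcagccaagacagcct

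YAP1 and H3K27ac differed at many intervals. With an adjusted p under 0.05, YAP1 was higher at 9209 intervals (19.7% of those tested) and lower at 10200 (21.8%). With a log2 ratio of at least 1 as well, 7829 (16.7%) were strongly higher and 6770 (14.5%) strongly lower. Both YAP1 libraries lay above both H3K27ac libraries at 9172 of the 9209 higher intervals, beside 16873 of all 46771 tested. The call uses the same 4 libraries, so this separation is nearly fixed by it. The balance of higher to lower calls depends on the scaling between libraries: scaling to the weakest 25% of intervals gave 6330 higher and 14022 lower with a median log2 ratio of -0.29 in place of 0.04, and fitting all 8 vehicle libraries together gave 4486 and 14102 with a median of -0.30.

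**Figure D1:**
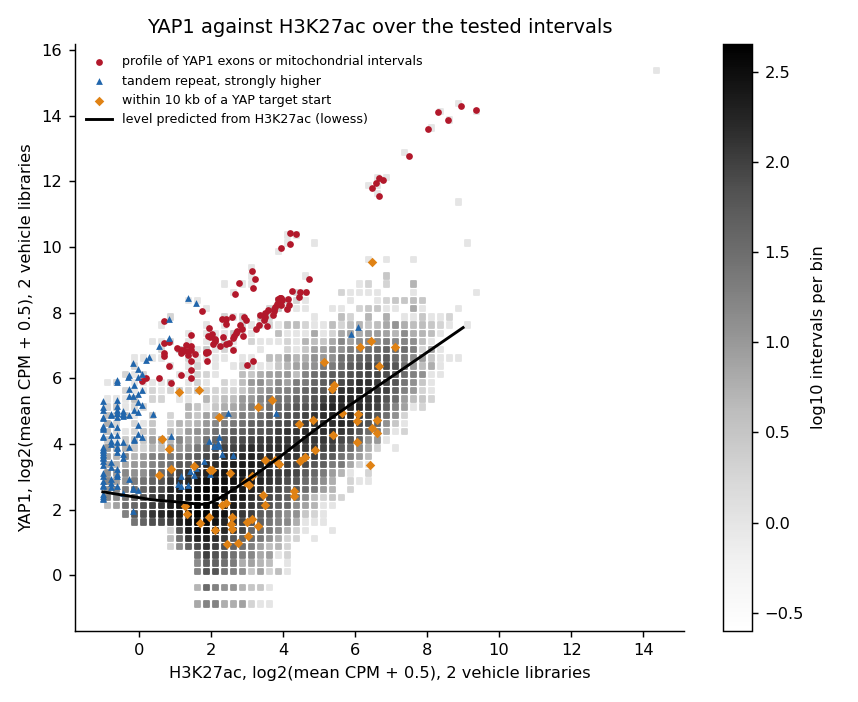
Mean YAP1 level against mean H3K27ac level on log2(CPM + 0.5) axes, with grey squares for the number of tested intervals per bin, a black line for the YAP1 level predicted from H3K27ac, and coloured points for 3 sets described in the text. The line is nearly flat at low acetylation, where an interval was tested only if YAP1 had enough counts, and then climbs. Red points (106 intervals) lie far above the line. Most blue triangles (strongly higher intervals with a tandem GGAAT match) lie above it at low acetylation. Intervals near YAP target genes lie on both sides of the line.

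YAP1 signal was spread further from promoters than acetylation. Promoters, intervals within 1 kb of an annotated start site, took 70.3% and 69.4% of the kept YAP1 counts (69.9% ± 0.666, SD, n = 2) and 80.4% of the kept H3K27ac counts in both libraries. The difference of -10.5 percentage points had an exact two-sided permutation p of 0.33, the smallest that 2 against 2 libraries can give. Of the strongly higher intervals 72.4% were distal, meaning further than 1 kb from a start site, and of the strongly lower ones 20.9%. The median log2 ratio was -0.46 at promoters of protein-coding genes, 0.13 at other promoters, 0.24 in introns, 0.61 in exons and 0.68 between genes. At protein-coding promoters 13.4% of intervals were higher and 42.8% lower, whereas between genes 30.3% were higher and 3.95% lower.

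That contrast moved with how strongly an interval was acetylated. In replicate number 2 an interval at the 10th percentile of H3K27ac (1.62 CPM) had a predicted YAP1 level of 4.21 CPM, one at the median (6.14 CPM) 6.02 CPM, and one at the 90th percentile (62.4 CPM) 38.1 CPM. The predicted ratio was thus above 1 at weakly acetylated intervals. The count filter contributes to this, since an interval with few H3K27ac counts was tested only where YAP1 had enough counts. How much of the low end of the prediction the filter sets was not tested. Promoters were more acetylated (median 23.5 CPM) than distal intervals (3.54 CPM). The median log2 ratio of distal intervals exceeded that of promoters by 0.82 ± 0.0197 (SD, n = 2 replicate numbers), but by only 0.18 when the trend with abundance was removed. The residual, the log2 YAP1 level minus the level predicted from H3K27ac in the library of the same number, had a median of -0.03 at promoters and -0.07 at distal intervals. It was at least 1 with both replicate numbers at 3836 intervals (8.20% of those tested), of which 1865 were distal: 9.01% of promoters and 7.49% of distal intervals.

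The TEAD core was more frequent in distal intervals with more YAP1, on the ratio and on the residual. Tandem repeats and the intervals with the profile of the YAP1 exons or the mitochondrial genome, described below, were left out of these counts. GGAATG on either strand within the central 200 bp was present in 16.9% of strongly higher distal intervals, 9.53% of those not called and 8.71% of those strongly lower, against 11.1% of all distal intervals counted. Distal intervals with the site had a median log2 ratio 0.33 ± 0.0221 (SD, n = 2 replicate numbers) above those without it, and 34.9% of them were called higher, against 21.9%. A residual of at least 1 was found in 339 of 2728 distal intervals with the site (12.4%) and in 1374 of 21933 without it (6.26%). The share was greater with the site in each of 5 equal bins of acetylation: 9.18% against 3.44% in the weakest bin, 10.8% against 5.62% in the middle one and 22.9% against 11.1% in the strongest.

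Other motifs were compared in the same way. The same letters read in reverse order, GTAAGG, served as a comparison with the same base composition, and were in 5.31% of distal intervals with a residual of at least 1 and 5.21% of the others. The corresponding shares for GGAATG were 19.8% and 10.4%. The share with the CTCF core motif went from 2.35% in the lowest to 15.8% in the ninth decile of the log2 ratio, but was in 8.41% of distal intervals with a residual of at least 1 and 9.30% of the others. By decile of the residual it went from 3.32% in the lowest to 12.7% in the eighth and 10.4% in the top decile. The AP-1 site TGACTCA was in 6.92% of strongly higher distal intervals, 6.07% of uncalled ones and 3.40% of strongly lower ones, and in 5.19% of the lowest and 7.83% of the top decile of the residual. The excess of GGAATG was present in each of 3 equal bins of GC content: 21.2% of strongly higher against 11.4% of other distal intervals in the AT-rich bin, 18.0% against 10.4% in the middle and 10.2% against 6.48% in the GC-rich bin. At promoters the site was in 10.4% of strongly higher, 7.71% of uncalled and 6.82% of strongly lower intervals.

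**Figure D2:**
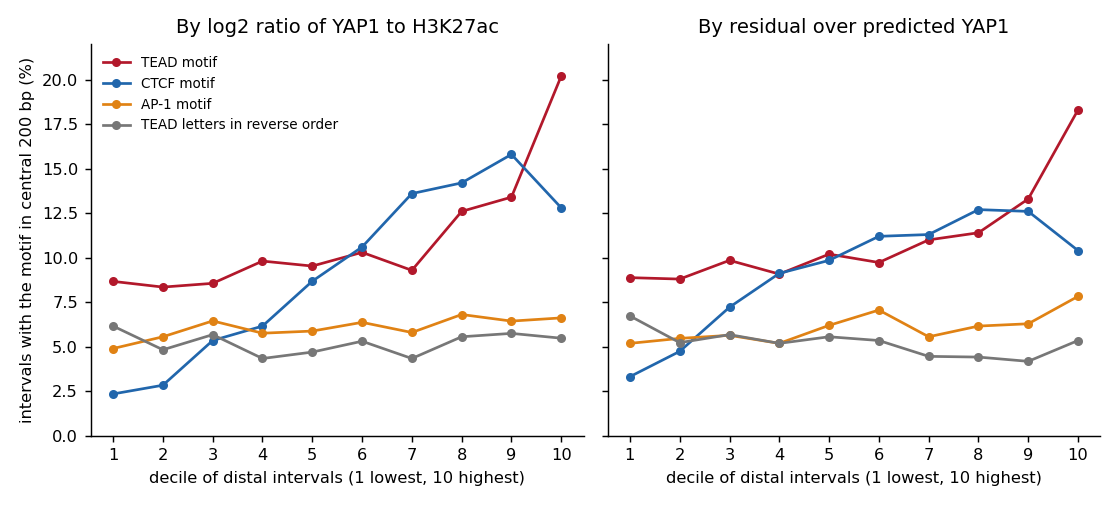
Share of distal intervals with each motif in their central 200 bp (vertical axis, percent), by decile of the log2 ratio of YAP1 to H3K27ac (left) and by decile of the YAP1 residual (right). The TEAD motif climbs in the top deciles on both sides, to 20.2% and 18.3%, while its letters in reverse order stay between 4.18% and 6.73%.

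Within the distal intervals the TEAD site lay toward the centre where YAP1 was in excess. In intervals with a residual of at least 1 there were 1.34 copies per kb within 50 bp of the centre and 0.638 per kb at 200 to 250 bp. In the other distal intervals the density was 0.578 and 0.551 per kb at the same distances. The reversed letters had 0.356 and 0.335 copies per kb in the intervals with excess YAP1.

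**Figure D3:**
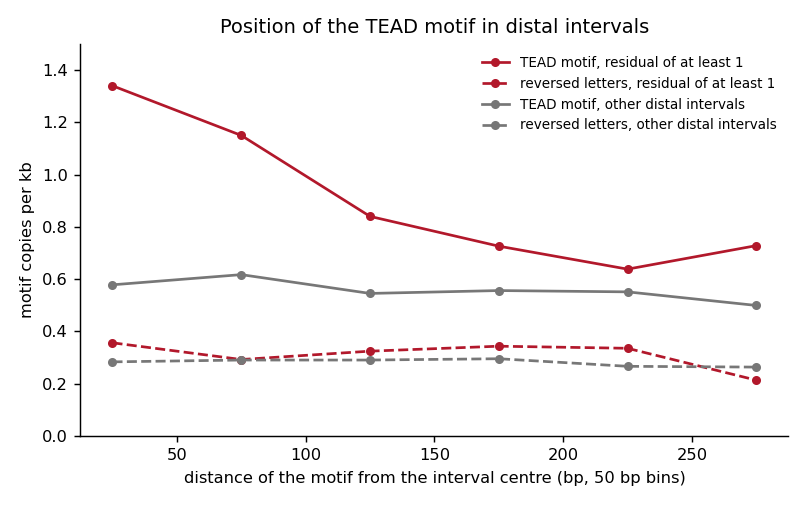
Copies per kb of the TEAD motif (solid) and of its letters in reverse order (dashed) against distance from the interval centre in 50 bp bins, for 1713 distal intervals with a residual of at least 1 (red) and 22948 others (grey). Only the solid red line is raised near the centre, at 1.34 copies per kb.

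The shares also differed with the base after the core, where TEAD factors are known to prefer T or C. Among 2053 distal intervals with a single copy of the site, in the central 200 bp, a residual of at least 1 was found in 14.8% of the 582 with GGAATGT and 15.0% of the 525 with GGAATGC. It was found in 5.92% of the 456 with GGAATGA and 7.14% of the 490 with GGAATGG, close to the 6.26% of distal intervals that lack the core there. By the base before the core the share ran from 9.89% to 12.3% over the 4 bases. The 2 sides together were less simple: the share was 21.0% with A before and T after, and 21.9% with G before and C after, but 4.55% (6 of 132) with G before and T after and 5.56% with C before and T after. These shares describe intervals of the same 4 libraries and carry no test.

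Some intervals with many copies of the core had far more YAP1 than H3K27ac. Of 42 intervals with 5 or more copies and no tandem GGAAT, 20 (47.6%) were higher and 10 (23.8%) lower, against 18.5% and 19.4% of intervals with no copy. Between these classes the lower share grew more than the higher one. With 1, 2 and 3 to 4 copies, 20.9%, 22.6% and 24.0% were higher and 27.1%, 33.3% and 38.7% lower. The array in CLPTM1L lies in an intron of this gene for a membrane protein, within 1 kb of a start site (chr5:1327082-1328536), and holds 32 copies, all on the minus strand and mostly 29 bp apart. It had 1140 and 1000 CPM in the YAP1 libraries and 28.4 and 27 CPM in the H3K27ac libraries, so the groups were far apart (log2 ratio 5.27, SE 0.10, adjusted p = 2.8e-22). CTCF had 82 and 56 raw counts there and RAD21 113 and 52, beside 2175 and 1570 for YAP1. An array of 43 copies in an intron of the noncoding gene LINC00632 (chrX:140723232-140724259) had 205 and 158 YAP1 counts, 13 and 16 H3K27ac counts and a log2 ratio of 5.46 (adjusted p = 2.2e-15). A pair of shorter neighbouring arrays in the same intron, with 9 and 14 copies, had log2 ratios of 5.22 and 4.57.

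Other arrays were not high, or not in both libraries. An interval in an intron of PPP2R2D, a regulatory subunit of protein phosphatase 2A, has 19 copies but a log2 ratio of -0.21 (adjusted p = 0.70). The 21-copy interval in an intron of ACTN2, the gene of a muscle actinin, had 11.5 and 39.0 CPM of YAP1 and 12.3 and 9.05 CPM of H3K27ac, so the groups overlapped although the fit called it (log2 1.19, adjusted p = 0.012). In an intron of DOT1L, a histone methyltransferase gene, 38 of the 42 YAP1 counts at a 16-copy interval came from 1 library. The intron of SYNE1, which encodes a nuclear envelope protein, holds a 5-copy interval with 29.3 and 35.8 CPM of YAP1 against 3.99 and 1.29 CPM of H3K27ac (log2 3.60, adjusted p = 6.4e-08).

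Tandem GGAAT repeats, the unit of a class of pericentromeric satellites, included most of the named distal intervals with the largest ratios, 5 of 6. Of 181 tested intervals with at least 1 tandem GGAAT match, 126 (69.6%) were higher and 18 (9.94%) lower. Their median log2 ratio was 5.32, and 30 had no H3K27ac count in either library. The count filter contributes to these values. The median H3K27ac level of the set was 0.485 CPM, and intervals that weak were tested only where YAP1 had enough counts. Of 223 kept intervals with a match, 181 were tested. How much of the shares and the median the filter sets was not tested. Only 96 of the 181 held 2 or more matches. Intervals with a single match included starts of protein-coding genes, such as CDC42SE1 and TAOK1 (lower) and HDAC6 (higher). The shares of the set therefore do not describe satellites alone. On chromosome 4, 22 of the 24 intervals with a match were higher. The satellite at chr4:49637591-49637965, with 36 copies of GGAATG, had 38.7 and 40.2 CPM of YAP1 and no H3K27ac count, at least 163-fold higher from a floor of 3 counts over both H3K27ac libraries. At chr21:7258600-7258969 YAP1 had 28.2 and 40.2 CPM (at least 140-fold higher), and at chr20:31241521-31241989, with 71 copies, 31.9 and 32.6 CPM (at least 134-fold). Satellite repeats of this kind are collapsed in the assembly and reads can be placed on several copies, so the levels of single repeats are uncertain. All intervals with a tandem match, satellite or not, together held 0.512% and 0.537% of the kept YAP1 counts. The H3K27ac libraries had 0.185% and 0.181% of their kept counts there, the CTCF libraries 0.239% and 0.237%, and the RAD21 libraries 0.284% and 0.259%.

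Other named intervals without an H3K27ac count hold no tandem repeat. They too passed the count filter only through their YAP1 counts. The interval at chr1:214888448-214888828, 116947 bp from KCNK2, had 18.8 and 29.4 CPM of YAP1 (at least 97.8-fold higher), without a TEAD core. At promoters, the start of the noncoding gene ENSG00000290479 (chr6:29142391-29142727) had 17.2 and 12.8 CPM and 3 copies of the core (at least 63.2-fold higher), while the olfactory receptor gene OR2T1 had 3.14 and 13.4 CPM (at least 32.2-fold). CTCF had 119 and 109 raw counts at OR2T1, beside 6 and 21 for YAP1. The log2 ratio of YAP1 to CTCF there was -2.41 in the fit of all 8 vehicle libraries. The pseudogene ECM1P2 (chr4:12640310-12640667) had 22.5 and 29.4 CPM of YAP1 and 2 H3K27ac counts, both in replicate 1. Its ratio of 159 has a 95% exact binomial interval, for counting error only, of 42.8 to 1340. None of the intervals in this paragraph passed the joint test against CTCF and RAD21 described below.

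Another set had very high YAP1 levels. Across the 16 libraries, 106 tested intervals had a count profile like that of the YAP1 exons or the mitochondrial genome, within a root mean square of 0.8 log2, and at least 100 YAP1 counts on average. All 106 were strongly higher, with log2 ratios from 3.44 to 7.53. The choice by profile fixes this, and the shares that follow, since it used these libraries and the mitochondrial intervals have a log2 ratio of 5.16. They held 12.3% and 13.4% of the kept YAP1 counts, 0.341% and 0.343% of the H3K27ac counts, 2.79% and 3.91% of the CTCF counts and 8.39% and 11.5% of the RAD21 counts. The set included YAP1P1, a processed copy of YAP1 on chromosome 6 (chr6:147407104-147408273), with 17400 and 19400 CPM of YAP1 against 637 and 663 CPM (log2 4.82). It also included 20 intervals at nuclear copies of mitochondrial genes, among them MTCO2P12 (19100 and 21300 CPM, log2 5.37) and MTCO1P40 (208 and 220 CPM, log2 7.53). Widths of 370 to 390 bp were found in 74 of the 106, or 69.8%, against 3.35% of all tested intervals. Whether reads from the YAP1 transgene, the YAP1 gene or the mitochondrial genome were placed there was not tested. Without these intervals 9156 were higher and 10130 lower.

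A few other intervals with very high YAP1 stood outside that set. The interval with the most YAP1 counts lies in an intron of LINC00486 (chr2:32916142-32916614, 92.8% GC), with 37000 and 51300 CPM of YAP1 and 21500 and 24700 CPM of H3K27ac (log2 0.94). It held 3.61% and 4.86% of the kept YAP1 counts, 3.59% and 5.65% of those for CTCF and 6.11% and 11.6% of those for RAD21, so it was high with every antibody. The first interval of chromosome 5 (chr5:9951-11626) had 2500 and 2600 CPM against 537 and 459 CPM (log2 2.35). In an intron of the noncoding gene ENSG00000258964 on chromosome 14 (chr14:61755165-61755671) YAP1 had 413 and 473 CPM and H3K27ac 2.71 and 7.60 CPM, with no TEAD core (log2 6.42, SE 0.17, adjusted p = 1.1e-18). Its CTCF libraries had 3 and 18 counts and its RAD21 libraries 35 and 4, beside 790 and 740 for YAP1.

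YAP1 was also required to exceed CTCF and RAD21 as well as H3K27ac. This asks for a higher scaled level than with each other antibody, not for the absence of their signal. The interval chr21:6368997-6372763 passed with 3251 and 3133 H3K27ac counts and 1847 and 1227 CTCF counts. Over the 8 vehicle libraries, 476 of 51721 intervals (0.920%) passed this joint test. They included 79 with the YAP1-exon or mitochondrial profile and 40 with a tandem GGAAT match. The 357 others remained, of which 145 were distal. Among those 145, GGAATG was in the central 200 bp of 35.9%, against 11.3% of all distal intervals in the test, TGACTCA in 9.66% against 4.91%, and the reversed letters in 4.14% against 5.35%. The CTCF motif was in 1.38% against 15.0%, a share that the comparison with CTCF itself lowers. The share passing grew with the number of cores: 0.504% with none, 0.997% with 1, 1.67% with 2, 2.18% with 3 to 4 and 19.5% (8 of 41) with 5 or more. Median width grew from 501 bp with none to 1112 bp with 3 to 4, and was 788 bp with 5 or more. The part of width was not tested. Against H3K27ac alone, in the main comparison, the median log2 ratio fell from 0.05 with none to -0.25 with 3 to 4 and was 0.74 with 5 or more. The count of joint calls depended on the CTCF and RAD21 libraries: 1309 passed without CTCF replicate 1, 1261 without CTCF replicate 2 and 1224 without RAD21 replicate 2, and 781 or 918 under other scalings.

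As examples of distal sites in that set, 3 are given here. In an intron of GLIS3, a zinc finger factor gene, 34 and 23 YAP1 counts faced 14 and 1 for H3K27ac and none for CTCF or RAD21 (chr9:4137241-4137631, joint adjusted p = 0.0099, 1 core). An interval 60747 bp from RND3, the gene of a small GTPase, had 23 and 34 YAP1 counts against 3 and 8 for H3K27ac, 5 and 3 for CTCF and 1 and 0 for RAD21 (chr2:150410817-150411213, joint adjusted p = 0.0071, 1 core). In an intron of AMOTL1, which encodes a YAP-binding angiomotin, YAP1 had 19.9 and 24.9 CPM and H3K27ac 1.92 and 1.29 CPM, with no core (chr11:94737313-94737701, joint adjusted p = 0.0075). In the 8-library fit the log2 ratio of YAP1 to CTCF was 2.91 at AMOTL1 and 3.49 near RND3, and to RAD21 3.10 and 4.92. These 3 intervals were picked for naming after their values were seen.

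Chromosome 19 differed from the other chromosomes. Of its promoters 42.8% were higher and 13.9% lower, against 14.9% and 39.0% of all promoters, and of its distal intervals 62.6% were higher, against 23.9%. The median residual on chromosome 19 was 0.67 at promoters (0.70 and 0.65 with replicate numbers 1 and 2) and 0.67 at distal intervals (0.69 and 0.73). Chromosome 17 followed with 0.30 and 0.19 and chromosome 22 with 0.26 and 0.15, while chromosome 13 had -0.43 and -0.34. Of the 476 intervals in the joint set, 104 were on chromosome 19, or 3.96% of its 2628 tested intervals. Promoters had a median GC of 64.1% on chromosome 19 and 64.4% on chromosome 8, whose median promoter residual was -0.28. At distal intervals chromosome 19 had the highest median GC of the 23 chromosomes, 57.9%, followed by chromosomes 22 (57.3%), 16 (56.9%) and 17 (56.2%), which also had the next highest distal residuals (0.15, 0.14 and 0.19). The part of GC content in the result was not tested within chromosomes. Relative to RAD21 its distal intervals also stood high, with a median log2 ratio of -0.38 against -0.85 on chromosome 17, but relative to CTCF they did not (-1.49 against -1.58). The chromosome was singled out after its values were seen, and whether its copy number in these cells moves with the result was not tested. The fit of all 8 vehicle libraries gave a median log2 ratio of 1.01 at its distal intervals and 0.02 at its promoters.

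**Figure D4:**
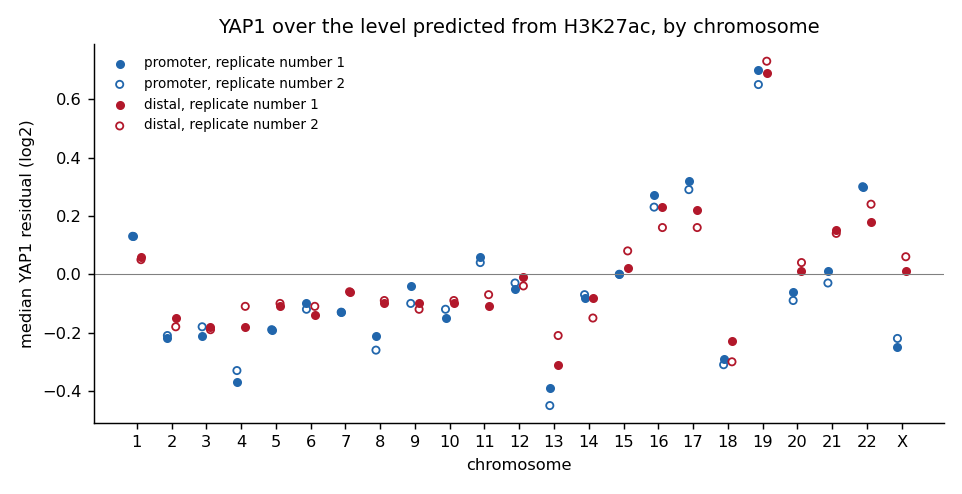
Median YAP1 residual (log2, vertical axis) on each chromosome for promoters (blue) and distal intervals (red), with filled points for replicate number 1 and open points for number 2. Chromosome 19 lies between 0.65 and 0.73 in all 4 values, and each other chromosome at or under 0.32.

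Near known YAP target genes YAP1 was higher at some intervals and lower at others, most of the lower ones at promoters. Of 22 genes on the list, 20 had a tested interval within 10 kb of a start site, 61 intervals in all, and MYOF and IGFBP3 had none. YAP1 was higher at 16 (26.2%, against 19.7% of all tested) and lower at 21 (34.4%, against 21.8%), with a median log2 ratio of -0.24 against 0.04. At their promoters 5 of 34 were higher and 18 lower, beside 14.9% and 39.0% of all promoters, so the share of higher promoters was near the background. At distal intervals 11 of 27 were higher and 3 lower, beside 23.9% and 6.65% of all distal intervals. Of the 16 higher intervals 12 held a TEAD core anywhere in the interval, as did 7 of the 21 lower ones. Of the 61, 6 passed the joint test.

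ANKRD1, which encodes a cardiac ankyrin repeat protein, had 3 intervals in that joint set. At its start (chr10:90921107-90921672) YAP1 had 48.1 and 50.5 CPM and H3K27ac 1.44 and 3.88 CPM (log2 4.20, SE 0.32, adjusted p = 3.2e-10). The printed ANKRD1 stretch comes from this interval. Both upstream intervals were higher too, with log2 ratios of 1.89 and 2.73.

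CCN1 encodes a secreted matrix protein. The interval 2825 bp from its start (chr1:85584288-85584678), with the printed core, had 51.2 and 44.7 CPM of YAP1 against 2.08 and 1.29 CPM of H3K27ac (log2 4.81, SE 0.32, adjusted p = 3.1e-11). At the CCN1 start YAP1 was at a higher level, 117 and 131 CPM, but so was H3K27ac, at 67.9 and 71.5 CPM (log2 0.83, adjusted p = 4.2e-06). CCN2, a related matrix protein gene, had 94.1 and 85.6 CPM of YAP1 at its start and 36.6 and 32.7 CPM of H3K27ac (log2 1.38, SE 0.14, adjusted p = 4.7e-08), with 3 cores.

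AMOTL2, a gene of an angiomotin that binds YAP, had 40.8 and 39.6 CPM of YAP1 in an intron (chr3:134363914-134364769) and 12.5 and 12.3 CPM of H3K27ac (log2 1.70, SE 0.22, adjusted p = 1.5e-06). At its start the level was 141 and 142 CPM against 88.1 and 83.6 CPM (log2 0.72, adjusted p = 8.7e-06). In the fit of all 8 vehicle libraries the AMOTL2 start (log2 0.18, adjusted p = 0.45) and the CCN1 start (log2 0.29, adjusted p = 0.15) were no longer called.

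RBMS3, an RNA-binding protein gene, went both ways. An interval in an intron (chr3:29693938-29694314), the one printed, had 11 and 16.6 CPM of YAP1 and 0.798 and 1.78 CPM of H3K27ac (log2 3.38). Another (chr3:29430615-29430975) had 18.8 and 16 CPM against 0.798 and 1.29 CPM, without a core (log2 4.02). Its strongest interval, at the start of an upstream transcript, was lower, with 25.6 and 14.1 CPM against 92.1 and 104 CPM (log2 -2.27).

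For each gene the strongest interval is the one with most YAP1. It was lower for 7 target genes: RBMS3, ASAP1 (log2 -1.99), FJX1 (-1.89), the coagulation factor gene F3 (-1.20), TGFB2 (-1.13), DOCK5 (-1.12) and NT5E (-1.02). The NT5E call did not hold in 6 of the alternatives, with an adjusted p between 0.051 and 0.16, and the DOCK5 call in 1 (adjusted p = 0.060). For 8 genes it was not called: LATS2 (0.32), ARHGEF17 (0.37), NUAK2 (0.15), GADD45A (-0.16), PTPN14 (-0.28), CRIM1 (-0.11), CCDC80 (-0.12) and AXL (-0.24). LATS2 and ARHGEF17 passed the test in 4 alternatives, among them the removal of the trend with abundance (log2 0.84 and 0.90). CRIM1 had a higher interval in an intron (log2 2.98), AXL one at an upstream start (1.35) and NUAK2 one upstream (1.29). The interval 1143 bp from FOXF2 (chr6:1387954-1388433), at 702 and 801 CPM of YAP1 against 88.1 and 88.0 CPM, had the most YAP1 on the list (log2 3.09) but lay at a profile distance of 1.00 from the YAP1 exons, outside the limit of 0.8, and has no core. Both FOXF2 start intervals were lower (log2 -1.38 and -2.02).

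**Figure D5:**
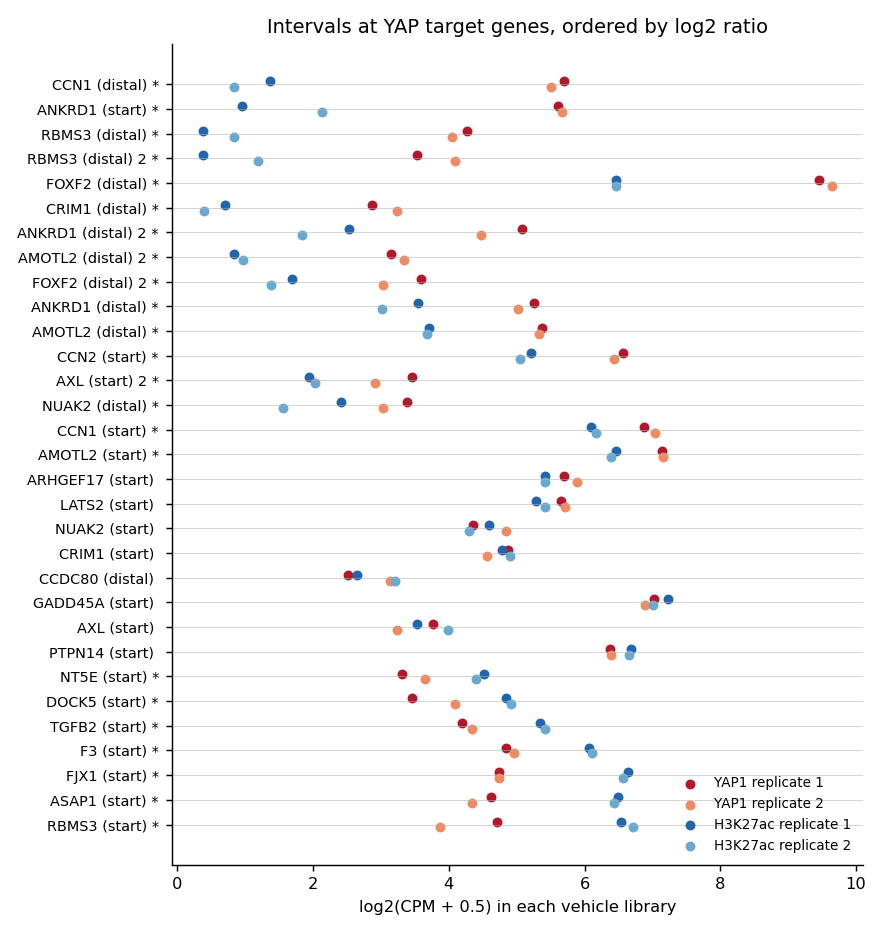
Level in each vehicle library, as log2(CPM + 0.5), at the strongest YAP1 interval of each target gene and at every interval called higher, ordered by log2 ratio; a star marks an adjusted p under 0.05. Red YAP1 points lie right of blue H3K27ac points down to AMOTL2 (start) and left of them from NT5E on.

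Genes of the Hippo pathway itself were more often lower than higher. Of 70 intervals near 22 genes of the Hippo pathway and its partners, 4 were higher (5.71%, against 19.7% of all tested) and 28 lower (40.0%, against 21.8%), with a median log2 ratio of -0.55. Of the 70, 46 were promoters, and 25 of those were lower, beside 39.0% of all promoters. An interval within 10 kb of TEAD2 on chromosome 19, which lies at the start of the neighbouring gene DKKL1, had 156 and 147 CPM of YAP1 and 39.6 and 28.1 CPM of H3K27ac (log2 2.16, adjusted p = 2.2e-11) and passed the joint test. The kinase gene LATS1 (-1.08), the YAP paralogue WWTR1 (-1.09), the scaffold SAV1 (-1.19) and the atypical cadherin FAT1 (-1.92) were lower at their strongest interval.

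Genes of AP-1, a factor that shares many enhancers with TEAD, were the group with the highest median of the 6 lists, 0.75: 18 of 36 intervals were higher (50%, against 19.7% of all tested) and 5 lower (13.9%, against 21.8%). FOSB, JUNB and JUND, with 3, 4 and 2 of the higher intervals, are on chromosome 19, where 42.8% of all promoters and 62.6% of distal intervals were higher. JUND had 167 CPM of YAP1 in both libraries and 62.6 and 73.7 CPM of H3K27ac (log2 1.29), FOSL2 50.2 and 65.1 CPM against 25.9 and 25.7 CPM (log2 1.15) and ATF3 197 and 203 CPM against 146 and 151 CPM (log2 0.42). The strongest interval of BATF3 was lower (-0.67), as was that counted for JUNB (-0.82), which lies at the start of the neighbouring gene PRDX2.

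Near ribosomal protein genes 40 of 201 intervals were higher (19.9%, near the 19.7% of all tested) and 91 lower (45.3%, against 21.8%). At their promoters 21 of 160 were higher and 89 lower (median -0.70, against -0.38 at all promoters), and 19 of 41 distal intervals were higher and 2 lower (median 0.92, against 0.44 at all distal intervals). Of 98 intervals near HOX genes, which pattern the body axis, 2 were higher (2.04%) and 57 lower (58.2%). Of these, 74 were promoters, of which 49 were lower, beside 39.0% of all promoters. Near the kidney developmental factors 20 of 44 were lower (45.5%), with a median log2 ratio of -0.73. Of the 44, 33 were promoters, and 16 of those were lower, beside 39.0% of all promoters. None of the 44 was higher by edgeR, also none at an unadjusted p under 0.05 and none by DESeq2.

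At the other end, some acetylated intervals had no YAP1 count at all and passed the count filter only through H3K27ac. They included an intron of RSRC2 (10.5 and 11.2 CPM of H3K27ac, at least 12.6-fold lower for YAP1 from a floor of 3 counts over both libraries), an interval near TMEM242 (12.0 and 4.37 CPM, at least 9.50-fold) and an intron of VWA8 (5.43 and 9.38 CPM, at least 8.57-fold). At promoters they included SALL3, a zinc finger factor gene (9.74 and 11.2 CPM, at least 12.1-fold), COX6C, of the respiratory chain (6.71 and 9.38 CPM, at least 9.32-fold), and ZFHX4 (7.66 and 7.28 CPM, at least 8.66-fold). At this depth the YAP1 libraries cannot tell a level of 0 from one of a few counts.

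Under sorbitol the ratio of YAP1 to H3K27ac differed from that in vehicle cells at 4259 of 58173 intervals (7.32%), with a median difference of -0.36. Among the sites above, the vehicle excess was smaller in sorbitol at the ANKRD1 start (log2 0.92 in place of 4.20), the CCN1 downstream interval (1.89 in place of 4.81) and the AMOTL2 intron (-0.35 in place of 1.70).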

How the data were processed

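Per the labels, vehicle and sorbitol eGFP-YAP HEK293 nuclei were profiled by CUT&Tag with antibodies to GFP, H3K27ac, CTCF and RAD21, 2 libraries each. The authors deposited raw counts, not scaled between libraries, over 74404 shared intervals. Per the submitters' processing notes, Trim Galore, FastQC, BWA 0.7.17, SAMtools, Picard, bedtools 2.31.1 and MACS2 2.2.6 were used with hg38. Duplicate handling, multi-mapping reads and whether peaks were pooled are not given in the sources used here; multi-mapped reads would affect repeats. All intervals lay within hg38 chromosome lengths. No count column was left unmapped.

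Intervals were annotated with GENCODE release 44. The main test was edgeR 4.0.16 in R 4.3.3 (quasi-likelihood, robust, two-sided) on 4 vehicle libraries, with TMM scaling, filterByExpr (minimum count 10) and Benjamini-Hochberg adjustment. The joint test took the largest of 3 one-sided p-values. The standard error came from the F statistic. The residual used lowess (span 0.3, statsmodels 0.14.6) of log2(CPM + 0.5). Tested on simulated data for this comparison over 46771 intervals, 24.5% of 200 intervals changed 2-fold and 67.5% of 200 changed 4-fold were recovered. Floors and binomial intervals cover counting error only, since PCR copies are not independent molecules. DESeq2 1.42.0 was an alternative. Other alternatives were scaling, filters, GC correction, libraries in the fit and leaving out replicates.

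Named intervals were, among higher calls with both YAP1 libraries above both H3K27ac libraries and YAP1 above its median, 6 distal and 4 promoter intervals by ratio and as many by level (log2 ratio of at least 1), 1 within any 50 kb; 3 and 3 with the lowest ratio among lower calls with H3K27ac above its median; and the strongest interval of each YAP target gene. Others were picked after their values were seen. Results at 1 named distal interval and 1 listed gene are not reported here. Members and lists were chosen with earlier results of these data known. The descriptions of the YAP1-exon or mitochondrial profile, the chromosomes and the motif flanks were added after seeing the data. The replicate numbers are not known to pair the libraries. The correlation of deviations was 0.00643 for same numbers. It cannot show whether same-numbered libraries shared a culture, as deviations of different antibodies need not move together.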

Additional observations from a re-analysis of the deposited data

Results flagged for a closer look

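The ratio of YAP1 to H3K27ac was compared between sorbitol and vehicle cells at 48 named intervals, and the difference of the log2 ratio, sorbitol minus vehicle, had an adjusted p under 0.05 (edgeR interaction of target and treatment) at 17, of which 16 are given here. Over all intervals the median difference was -0.36.

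Of the strongest intervals of the 20 YAP target genes, the ratio was lower in sorbitol at ANKRD1, CCN1, AMOTL2 and PTPN14 and higher at FOXF2, and the others did not pass. The difference was -3.33 (SE 0.80, adjusted p = 0.0018) at the ANKRD1 start, -2.95 (SE 0.73, adjusted p = 0.0027) at the CCN1 downstream interval and -0.82 (SE 0.24, adjusted p = 0.014) at the CCN1 start. It was -2.07 (SE 0.26) at the AMOTL2 start, -2.09 (SE 0.49) in the AMOTL2 intron and -1.39 (SE 0.27) at the PTPN14 start. At the CCN2 start it did not pass (adjusted p = 0.11). The differences at the ANKRD1 start, the CCN1 downstream interval and the AMOTL2 intron rest on few YAP1 counts in sorbitol, given above.

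At some of the named intervals with the YAP1-exon or mitochondrial profile the ratio was higher in sorbitol. They were chosen by their profile over all 16 libraries, sorbitol included, so the choice largely fixes this direction. The difference was 1.83 at chr17:22521217-22521590 (nearest protein-coding gene KCNJ18), 1.41 at chr3:96617148-96618149 (nearest EPHA6), 1.66 at MTCO2P12, 1.28 at YAP1P1, 1.67 at chr11:10508886-10509996 (nearest RNF141) and 1.55 at ENSG00000289901. At MTCO1P40, of the same profile, it was 0.78 and did not pass (adjusted p = 0.46). It was also higher at the interval near FOXF2 (1.43) and at chr21:6368997-6372763 (nearest TPTE, 1.00).

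At 2 intervals the fitted difference rests on libraries without counts and is no bound on its size. It was 8.90 near TMEM242, where YAP1 had no count in vehicle cells. At ENSG00000290479 it was -13.18, where H3K27ac had no count in vehicle cells and YAP1 had none in sorbitol.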

How the results depend on the processing

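Fitted with the replicate number as a block, 8080 intervals were higher and 9547 lower, and 397 passed the joint test; with GC-corrected offsets as well, the block gave 8520 and 8489. The numbers are not known to pair the libraries. The counts of higher and lower intervals moved by over 1.5 times to 4948 and 4870 with a mean of at least 50 counts (fewer intervals tested), and to 4486 higher in the fit of all 8 vehicle libraries. Leaving out 1 library at a time gave 4579 to 7264 higher and 7091 to 10202 lower; the lowest were without H3K27ac replicate 1 (4579) and 2 (4588). Higher calls were 47.4% of all calls, but 31.1% with scaling to the weakest 25%, 24.1% with 8 libraries, and 36.5% (7157 and 12462) without a count filter.

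The joint test called 781 with total count scaling, 918 with DESeq2 size factors, 114 with a mean of at least 50 counts and 472 to 1309 without 1 library. Of the 476, 469 were among the 1309, 383 were called without H3K27ac replicate 1 and 388 without RAD21 replicate 1. With at least 50 counts, 56 of the 338 still tested were called.

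The distal minus promoter difference in median log2 ratio was 0.18 with the trend on abundance removed, 0.76 without a filter, 0.53 with at least 50 counts, 1.02 with 8 and 1.00 with 16 libraries, 0.55 with GC-corrected offsets and 0.55 with the block too, and 0.69 to 1.11 without 1 library. The difference with the TEAD motif was 0.30, 0.24, 0.63, 0.29, 0.27, 0.27 and 0.28 under these settings in turn, and 0.30 to 0.49 without 1 library. The YAP target list lay 0.28 under the median of all intervals (-0.28), but 0.02 above it with at least 50 counts. It was -1.17 within 1 kb of starts, -0.48 with 8 libraries and with GC-corrected offsets, -0.46 with 16 libraries, with the block and GC correction, and without YAP1 replicate 2, and -0.42 without H3K27ac replicate 2. Chromosome 19 lay 0.81 to 1.05 above the others in all settings. The promoter share differed by -9.73 points with 2 kb promoters, -12.4 without the intervals of the YAP1-exon or mitochondrial profile, and -11.0 to -10.1 without 1 library. The distal TEAD share was 7.46% of YAP1 and 4.27% of H3K27ac counts, beside 14.1% of CTCF and 9.90% of RAD21 counts. Between YAP1 and H3K27ac it differed by 3.19 points, and by 3.03 with 2 kb promoters. The difference was 3.40 without the intervals of the YAP1-exon or mitochondrial profile, 2.83 without tandem repeats, and 3.14 to 3.23 without 1 library. These are shares of all kept counts, so they also move with the distal share of counts, which was not divided out. Of 788 values for 48 named intervals under alternatives, 9 lost and 18 gained the call, and 0 changed the sign of a called value. Where no construction is named, the cause was not tested. The YAP1 depth limits single weak intervals.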
